A study of Mus musculus with 6 samples.

Results

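RNA-seq values of 8 genes of the leukemia inhibitory factor (LIF) and Stat3 pathway were examined in E14 mouse embryonic stem (mES) cells, a line of strain 129/Ola grown without feeders. The genes were chosen by name for their place in the pathway, with earlier results of these data known. They were the receptor genes *Lifr* and *Il6st*, the kinase gene *Jak1*, the transcription factor gene *Stat3*, the feedback genes *Socs3* and *Socs2*, and the target genes *Pim1* and *Junb*. All 8 were among the 16668 genes listed for every library. The cells of all groups were grown at early passage in 2i + LIF, that is, N2B27 medium with LIF, the MEK inhibitor PD0325901 and the GSK3 inhibitor CHIR99021, so every library came from cells given the ligand. Per the methods, cells were transfected with a control siRNA or with an siRNA against Ring1B or Dzip3, both of which are H2A ubiquitin ligases. The labels named 3 groups of 2 libraries each: control, Ring1B-KD and Dzip3-KD. A knockdown by siRNA lowers a transcript for a time in a culture of treated cells and removes no gene.

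LIF binds its receptor LIFR, which pairs with gp130, the signal-transducing chain encoded by *Il6st*. JAK kinases bound to the receptor tails, JAK1 above all in mES cells, phosphorylate STAT3, which then enters the nucleus and holds mES cells in self-renewal. STAT3 switches on *Socs3*, whose product binds gp130 and the JAKs and shuts the signal off. *Socs2* encodes a related protein best known for restraint of growth hormone signalling. *Pim1*, a serine/threonine kinase gene, and *Junb*, a subunit gene of the AP-1 factor, are immediate targets of the pathway in many cells. The assay measures RNA and not the phosphorylation that carries the signal, and in bulk RNA fewer cells with a transcript and less transcript per cell cannot be told apart. On the mm9 build, in the GENCODE M1 annotation, the 8 protein-coding genes lie at chr15:7079559-7147489 (*Lifr*, plus strand), chr13:113265216-113297068 (*Il6st*, plus), chr4:100824972-100937887 (*Jak1*, minus), chr11:100746412-100800854 (*Stat3*, minus), chr11:117827393-117831361 (*Socs3*, minus), chr10:94847996-94879814 (*Socs2*, minus), chr17:29627757-29632390 (*Pim1*, plus) and chr8:87500811-87502617 (*Junb*, minus).

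The sequences upstream of *Stat3* and *Socs3* are shown because the RNA of both genes was lower in the same set of libraries. Each is the 250 bp before the annotated start, from RefSeq on GRCm38.p6, a later build than that of the RNA values. Capitals mark TTCNNNGAA, the palindromic motif that STAT dimers bind, which reads the same on both strands. The *Socs3* window is chr11:117969367-117969616 and the *Stat3* window is chr11:100939541-100939790, both on the minus strand.
Socs3: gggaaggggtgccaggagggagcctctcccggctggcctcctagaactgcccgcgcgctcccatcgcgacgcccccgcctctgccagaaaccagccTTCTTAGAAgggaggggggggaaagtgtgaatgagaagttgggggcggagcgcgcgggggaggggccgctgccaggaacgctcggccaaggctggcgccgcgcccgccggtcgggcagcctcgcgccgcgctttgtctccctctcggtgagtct
Stat3: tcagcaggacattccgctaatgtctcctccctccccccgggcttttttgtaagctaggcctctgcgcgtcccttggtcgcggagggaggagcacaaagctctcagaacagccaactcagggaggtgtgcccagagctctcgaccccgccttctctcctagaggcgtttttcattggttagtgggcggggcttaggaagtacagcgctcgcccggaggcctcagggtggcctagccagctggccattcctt
The *Socs3* window held 1 such motif, TTCTTAGAA, whose first base lay 154 bp before the start. The *Stat3* window held 0. *Jak1* RNA was lower in the same set of libraries too. Its window is not shown and also held 0. Among the 9 windows found for 7 of the 8 genes, 1 held the motif, against 7.02% of 32851 windows of the same length. A match of these letters describes the sequence and does not show that the site was used.

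The 6 libraries fell into 2 sets by the number in the deposited file. By label, files 1 and 2 were control 1 and control 2, file 3 was Ring1B-KD 1, file 4 was Ring1B-KD 2, and files 5 and 6 were Dzip3-KD 1 and Dzip3-KD 2. Both control libraries thus lay in the first set and both Dzip3-KD libraries in the second. The condition word in the file name ran control, Ring1BKD, Dzip3KD within each set and differed from the label in 4 of the 6 libraries. The values are RPKM, that is, read numbers scaled to exon length and to the mapped reads of the library. Levels of different genes can thus be ranked, as far as the exon lengths used hold. The annotation behind those lengths is not known. Depth recovered from the values was 3015350 to 3583613 mapped reads per library, at which 3 reads on a 2 kb transcript made 0.419 to 0.497 RPKM. Libraries correlated at r = 0.960 to 0.974 within a set and at 0.940 to 0.957 between sets, across genes, which are not independent replicates. *Rnf2*, which encodes Ring1B, was at 30.6, 20.4 and 26.8 RPKM in files 1 to 3 and at 28.8, 19.4 and 28.2 in files 4 to 6. *Dzip3* was at 2.24, 2.68 and 1.18 RPKM in files 1 to 3 and at 1.89, 1.70 and 1.31 in files 4 to 6. In each set *Rnf2* was lowest where the file word was Ring1BKD and *Dzip3* was lowest where it was Dzip3KD. By label *Rnf2* was not lower in Ring1B-KD than in control (log2 difference 0.15, SE 0.24, limma adjusted p = 0.965). *Dzip3* was lower by label in Dzip3-KD (-0.47, SE 0.24, limma adjusted p = 0.458), but nearly as much in Ring1B-KD (-0.46, SE 0.24, adjusted p = 0.902), and neither passed. Neither word difference passed the test (*Rnf2* -0.55, SE 0.13, limma adjusted p = 0.232, *Dzip3* -0.45, SE 0.21, adjusted p = 0.754). Library names below are therefore labels and assert no knockdown. All 8 markers of embryonic stem cells were detected, with means from 45.5 RPKM (*Utf1*) to 510 RPKM (*Dppa5a*), so the libraries matched their labelled cell type.

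*Socs3* had the highest level of the 8 genes, with a mean of 24.1 ± 6.50 RPKM (SD, n = 6 libraries), followed by *Pim1* at 18.1 ± 1.69 and *Socs2* at 12.0 ± 1.74. By mean, both feedback genes thus stood above the receptor, kinase and transducer genes. *Il6st* averaged 9.91 ± 1.505 RPKM, *Stat3* 9.38 ± 2.89 and *Lifr* 6.65 ± 2.02. *Jak1* averaged 4.58 ± 1.09 RPKM and *Junb* 3.44 ± 1.00. In percentiles of all listed genes by mean RPKM, these levels ran from 93.8 for *Socs3* down to 58.7 for *Junb*. Neighbours in this order mostly did not differ beyond their spread. Only *Pim1* and *Socs2* had separate ranges, with the lowest *Pim1* value at 15.9 RPKM and the highest *Socs2* value at 14.6. *Socs3* exceeded *Pim1* in 4 of 6 libraries, and *Il6st* exceeded *Stat3* in 3 of 6. The exchange of places between *Stat3* and *Lifr* followed the files, with *Stat3* above *Lifr* in files 1 to 3 and below it in Ring1B-KD 2, Dzip3-KD 1 and Dzip3-KD 2. *Pim1* varied least across the libraries, with a coefficient of variation of 9.38%, and *Stat3* varied most, with 30.8%.

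**Figure D1:**
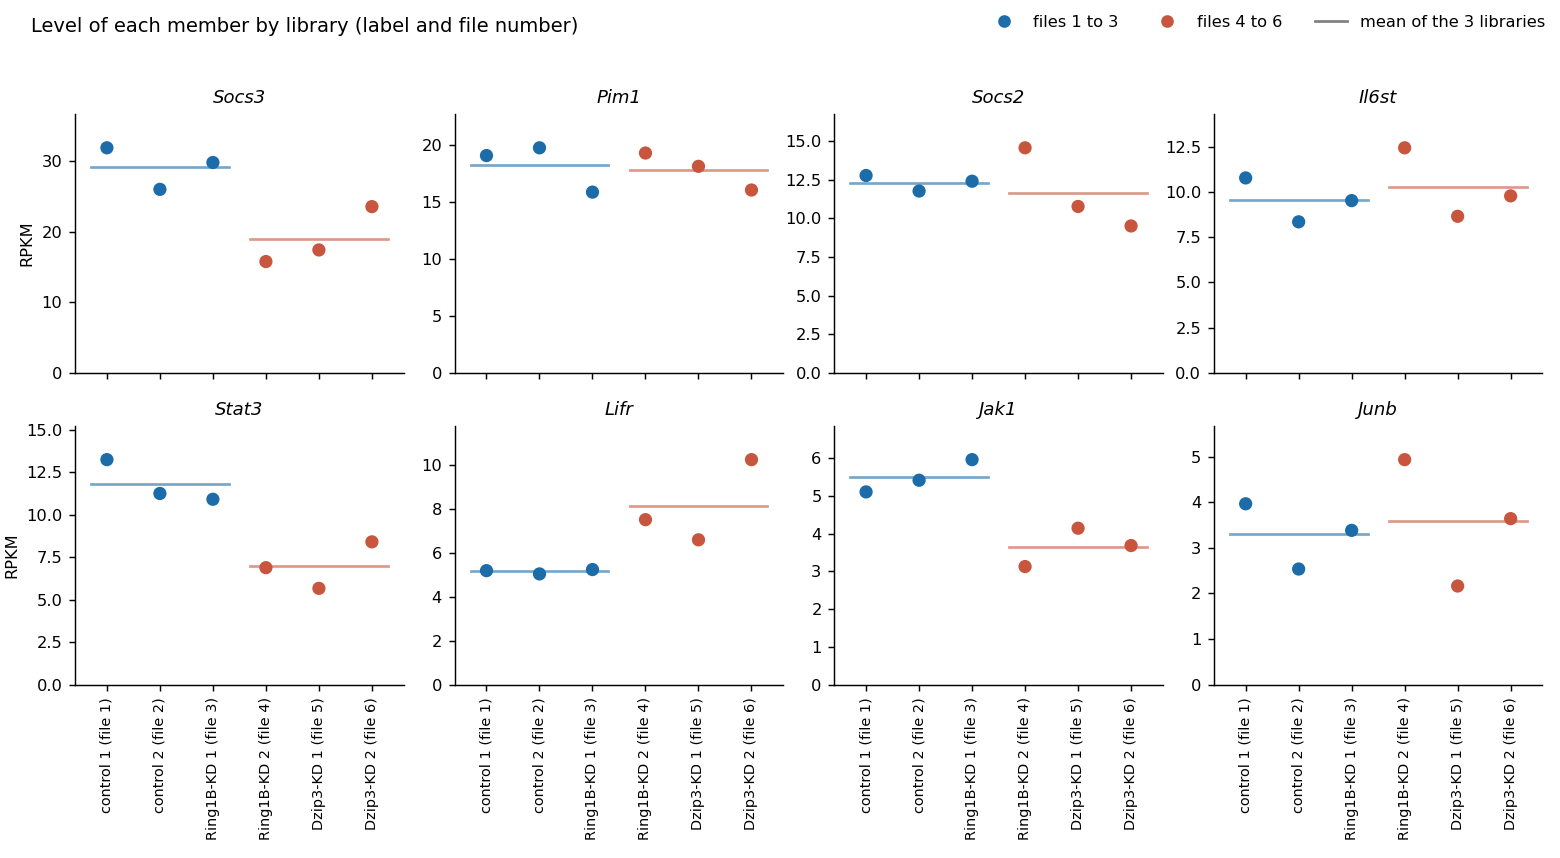
RPKM of each of the 8 genes in each library, in order of mean level, with sample label and file number on the horizontal axis; horizontal lines are means of 3 libraries. The points of files 4 to 6 lie below all points of files 1 to 3 for *Stat3*, *Socs3* and *Jak1* and above them for *Lifr*, and the sets overlap for the other 4 genes.

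The first comparison was between the file sets, files 4 to 6 against files 1 to 3, which no sample label names. *Stat3*, *Socs3* and *Jak1* were lower in files 4 to 6 and *Lifr* was higher, by 1.504 to 1.69 times, without overlap between the sets. *Stat3* passed the test and the other 3 did not. Because each set holds libraries of different labels, the spread in this test includes any effect of the labels. Both control libraries lie in files 1 to 3 and both Dzip3-KD libraries in files 4 to 6. Any effect of these labels is therefore also part of the set difference and cannot be told apart from it. The p-values measure only the spread between these libraries.

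Of the receptor genes, *Lifr* was at 5.20 RPKM in control 1, 5.05 in control 2 and 5.25 in Ring1B-KD 1, against 7.53 in Ring1B-KD 2, 6.61 in Dzip3-KD 1 and 10.3 in Dzip3-KD 2. The first 3 libraries were nearly alike, and all of the second set lay above them, with the widest spread there. Set means were 5.17 ± 0.104 and 8.13 ± 1.90 RPKM (SD, n = 3 each), 1.57 times higher in files 4 to 6. The log2 difference was 0.55 (SE 0.16, 95% interval 0.18 to 0.91) and did not pass (limma adjusted p = 0.0852). Recovered reads numbered 162, 179 and 183 in the first set and 257, 223 and 380 in the second. *Il6st*, which encodes the chain shared by all cytokines of the IL-6 family, was at 10.8, 8.34 and 9.51 RPKM in files 1 to 3 and at 12.4, 8.65 and 9.78 in files 4 to 6. Its sets overlapped, with a log2 difference of 0.09 (SE 0.16, 95% interval -0.27 to 0.45, limma adjusted p = 0.780). The ratio of *Lifr* to *Il6st* accordingly ran from 0.483 to 0.605 in files 1 to 3 and from 0.605 to 1.05 in files 4 to 6. Only in Dzip3-KD 2 did *Lifr* exceed *Il6st*.

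*Jak1* was at 5.11 RPKM in control 1, 5.42 in control 2 and 5.96 in Ring1B-KD 1, against 3.13 in Ring1B-KD 2, 4.15 in Dzip3-KD 1 and 3.69 in Dzip3-KD 2. All files of the first set lay above all of the second. The means were 5.50 ± 0.433 and 3.65 ± 0.509 RPKM (n = 3 each), and the log2 difference was -0.48 (SE 0.15, 95% interval -0.81 to -0.16, limma adjusted p = 0.0881). Whole reads could not be recovered for *Jak1*. *Stat3* was at 13.2 RPKM in control 1, 11.2 in control 2 and 10.9 in Ring1B-KD 1, against 6.88 in Ring1B-KD 2, 5.66 in Dzip3-KD 1 and 8.40 in Dzip3-KD 2. Here too every library of the first set was above every library of the second. Means were 11.8 ± 1.26 and 6.98 ± 1.37 RPKM (n = 3 each), 1.69 times higher in files 1 to 3. The log2 difference was -0.69 (SE 0.16, 95% interval -1.04 to -0.34) and passed the test (limma adjusted p = 0.0354). The call was lost without each of the 6 libraries in turn (adjusted p from 0.0611 without Dzip3-KD 2 to 0.116 without control 1) and without the filter on low genes (0.0766), while the difference stayed between -0.82 and -0.57. Recovered reads were 179, 173 and 165 against 102, 83 and 135, and voom on these reads gave an adjusted p of 0.00543.

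*Socs3* was at 31.9 RPKM in control 1, 26.0 in control 2 and 29.8 in Ring1B-KD 1, against 15.8 in Ring1B-KD 2, 17.4 in Dzip3-KD 1 and 23.6 in Dzip3-KD 2. The sets did not overlap, and Dzip3-KD 2 came nearest to the first set. Means were 29.2 ± 2.99 and 18.9 ± 4.11 RPKM (n = 3 each), 1.55 times higher in files 1 to 3. The log2 difference was -0.62 (SE 0.16, 95% interval -0.97 to -0.26) and missed the threshold (limma adjusted p = 0.0541). It passed where only genes of at least 5 RPKM were tested (adjusted p = 0.0397) and on recovered reads (voom adjusted p = 0.0129). *Socs3* shared its set difference with *Stat3*, but within a set the order of the libraries differed between the genes. The ratio of *Socs3* to *Stat3* was 2.41, 2.31 and 2.74 in files 1 to 3 and 2.29, 3.08 and 2.81 in files 4 to 6. This ratio averaged 2.61 ± 0.316 over 6 libraries while both levels moved by over 1.5 times. *Socs2* was at 12.8, 11.8 and 12.4 RPKM in files 1 to 3 and at 14.6, 10.8 and 9.52 in files 4 to 6. Its second set lay on both sides of the first, and the difference was -0.10 (SE 0.16, 95% interval -0.45 to 0.26, limma adjusted p = 0.761).

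The target gene *Pim1* was at 19.1, 19.8 and 15.9 RPKM in files 1 to 3 and at 19.3, 18.2 and 16.1 in files 4 to 6. In each set the lowest value was in the last file, and the sets had near-equal means. The set difference was -0.03 (SE 0.13, 95% interval -0.33 to 0.27, limma adjusted p = 0.920). *Junb* was at 3.97, 2.54 and 3.38 RPKM in files 1 to 3 and at 4.93, 2.16 and 3.64 in files 4 to 6. The middle file was lowest in both sets, and the set difference was 0.06 (SE 0.24, 95% interval -0.47 to 0.59, limma adjusted p = 0.909). With 13 to 30 reads per library, *Junb* rested on the fewest reads of the 7 members recovered.

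**Figure D2:**
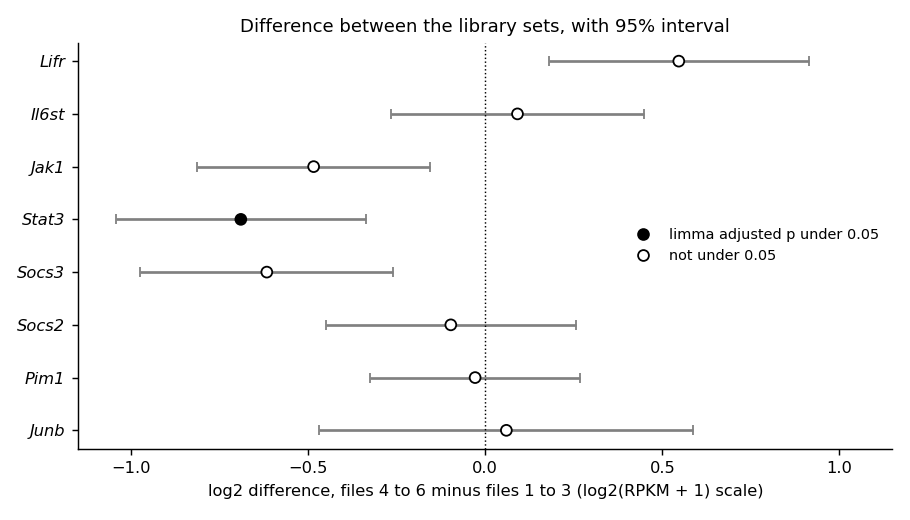
Log2 difference of each gene between the file sets (files 4 to 6 minus files 1 to 3, limma estimate on log2(RPKM + 1), n = 3 libraries each), with 95% intervals. The intervals of *Lifr*, *Jak1*, *Stat3* and *Socs3* lie on 1 side of 0, and only *Stat3* had an adjusted p under 0.05 (filled).

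One of 8 members was called between the file sets, against 5.53% of the 11538 genes tested (638 genes, of which 2.44% of all tested were lower and 3.09% higher in files 4 to 6). Without 1 library, the count over all genes was between 67 (without Dzip3-KD 2) and 359 (without Dzip3-KD 1). At an unadjusted p under 0.05 were 4 of 8 members and 23.2% of all genes. On recovered reads, voom called 3 of the 7 members recovered and 9.95% of 10559 genes. The sets did not overlap for 4 of 8 members, with 1 higher and 3 lower, where 13.1% and 15.5% of all genes did so. The median difference of the members was -0.06, and that of all genes was -0.04. Markers of other cell types were low in both sets. Summed RPKM of 4 neural markers was 4.18 to 6.45 in files 1 to 3 and 9.62 to 11.6 in files 4 to 6, mostly *Nes*, with a mean of 4.44 RPKM. The 4 trophectoderm markers summed to 2.11 to 2.66 against 0.896 to 1.98 RPKM, and 5 primitive endoderm markers to 0.964 to 1.34 against 0.654 to 0.896. The 3 mesoderm markers (0.270 to 0.663 and 0.258 to 0.545) and the 4 fibroblast markers listed, of 7 (1.18 to 3.10 and 2.16 to 2.296), overlapped between sets, and no listed marker was at 0 in all 6 libraries. Markers of embryonic stem cells summed to 1465 to 1852 and 1702 to 1944 RPKM. Single markers of this list went in both directions, with log2 differences from -0.67 (*Utf1*, limma adjusted p = 0.115) to 0.58 (*Tdgf1*, adjusted p = 0.0323). Of them *Tdgf1* alone passed the test. The part of these shifts in the set difference was not tested.

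The second comparison used the condition word in the file name within each set, 1 library against 1. In files 1 to 3 the words control, Ring1BKD and Dzip3KD stood, in this order, on control 1, on control 2 and on Ring1B-KD 1. In files 4 to 6 the word control stood on Ring1B-KD 2, the word Ring1BKD on Dzip3-KD 1 and the word Dzip3KD on Dzip3-KD 2. *Junb* and *Il6st* were lower in both libraries with the word Ring1BKD, and also in both with Dzip3KD, by less. *Socs2* was also lower in both libraries with either word, but its estimate was larger in size for Dzip3KD (-0.30) than for Ring1BKD (-0.26). *Pim1* was lower in both with Dzip3KD only. For either word, 0 members passed the test.

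With the word Ring1BKD, *Junb* was at 2.54 RPKM (label control 2) against 3.97 with the word control (label control 1), and at 2.16 (label Dzip3-KD 1) against 4.93 (label Ring1B-KD 2). These log2 differences of -0.49 and -0.91 gave an estimate of -0.70 with the set as block (SE 0.19, limma adjusted p = 0.346). *Il6st* differed by -0.33 in files 1 to 3 and by -0.48 in files 4 to 6 between the same libraries (estimate -0.41, SE 0.15, limma adjusted p = 0.511). Both genes thus shared their lowest libraries. *Stat3* differed by -0.22 and -0.24, *Socs2* by -0.11 and -0.40, and *Lifr* by -0.04 and -0.16. *Jak1* was higher in both sets, by 0.07 and 0.32, while *Socs3* (-0.28 and 0.14) and *Pim1* (0.05 and -0.09) turned in direction. In all, 5 of 8 members were lower in both sets, where 40.6% of all genes were, and 1 was higher, where 18.5% were. At an unadjusted p under 0.05 were *Junb* and *Il6st*, 2 of 8 members where 8.31% of all genes were. The test called 48 genes (0.416% of those tested, all higher), but 3 without Dzip3-KD 1 and 0 with no filter on low genes.

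With the word Dzip3KD, *Pim1* was at 15.9 RPKM (label Ring1B-KD 1) against 19.1 with the word control (label control 1), and at 16.1 (label Dzip3-KD 2) against 19.3 (label Ring1B-KD 2). Both differences were -0.25, the closest repeat among the members (estimate -0.25, SE 0.14, limma adjusted p = 0.769). *Socs2* differed by -0.04 in files 1 to 3 and by -0.57 in files 4 to 6 (estimate -0.30, SE 0.17, limma adjusted p = 0.774). *Il6st* differed by -0.16 and -0.32 and *Junb* by -0.18 and -0.35. *Jak1* was higher by 0.19 and 0.18, and *Lifr* by 0.01 and 0.40. *Stat3* (-0.26 and 0.25) and *Socs3* (-0.09 and 0.55) turned in direction together. Members lower in both sets numbered 4 (29.5% of all genes) and those higher 2 (22.3%). The test called 0 genes for this word (0%, limma; 752 at an unadjusted p under 0.05, which is 6.52% and held 0 of 8 members, and 5 by voom). The word control was on the highest library of both sets for *Il6st*, *Socs2* and *Junb*, where 17.3% of all genes were highest, and on the lowest for *Jak1*, where 7.51% were lowest. Both words are compared with the same control-word libraries, so these shares are not separate findings.

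**Figure D3:**
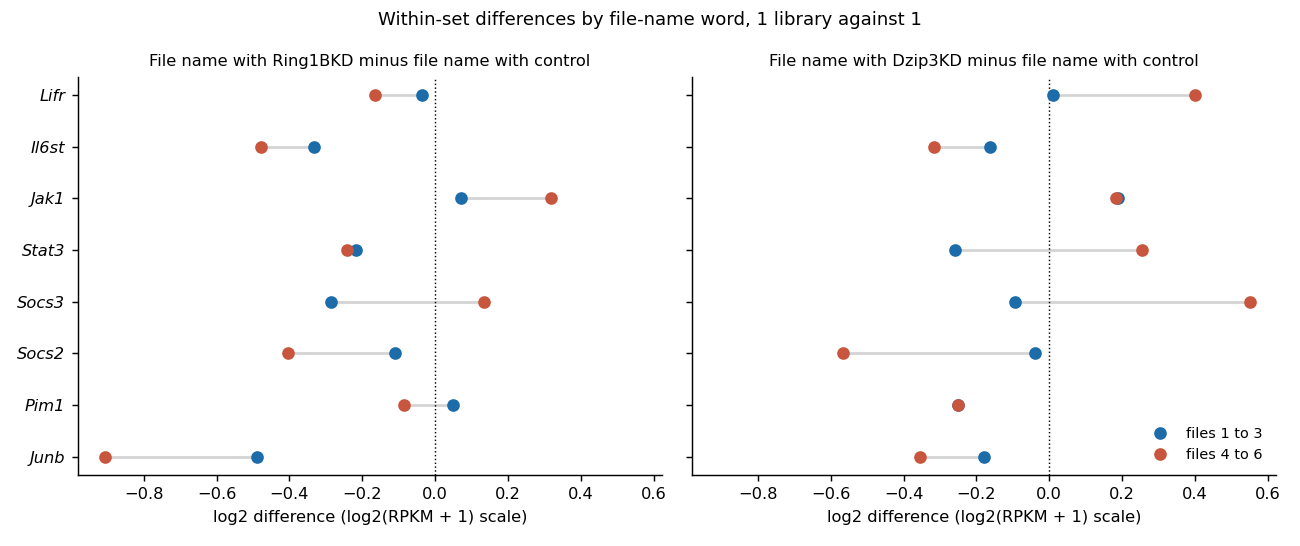
Log2 difference of each gene between the library with the word Ring1BKD (left) or Dzip3KD (right) and the library with the word control, on log2(RPKM + 1), within files 1 to 3 (blue) and within files 4 to 6 (red), with 1 library for each word and set and hence no error bar. *Junb*, *Il6st* and *Socs2* lie left of 0 in both sets in both panels, and *Stat3* and *Socs3* lie on both sides of 0 on the right.

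The third comparison followed the sample labels, 2 libraries against 2, and asked whether the pathway's transcripts differed between the labelled groups. No gene was called in any of the 3 contrasts (0% of 11538 genes, limma). Without adjustment, p was under 0.05 for 589 genes (5.1%) in Ring1B-KD against control, 1411 (12.2%) in Dzip3-KD against control and 534 (4.63%) in Dzip3-KD against Ring1B-KD, and voom called 0, 3 and 0 genes. For Dzip3-KD against control, leaving out Ring1B-KD 1 gave 25 called genes and leaving out Ring1B-KD 2 gave 27.

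For Ring1B-KD against control, the members differed by between -0.45 (*Stat3*) and 0.28 (*Junb*) on the log2 scale (limma adjusted p from 0.902 to 0.958). *Stat3* averaged 8.89 ± 2.84 RPKM in Ring1B-KD and 12.2 ± 1.41 in control (n = 2 each). The groups did not overlap for *Stat3*, lower, and *Lifr*, higher, 2 of 8 members where 33.7% of all genes did not (14.9% higher, 18.9% lower). The 2 Ring1B-KD libraries lay in different sets and differed between themselves. Ring1B-KD 1, which shares the controls' set, was off the control mean on the log2 scale by -0.15 for *Stat3*, 0.05 for *Socs3*, 0.15 for *Jak1* and 0.03 for *Lifr*. Ring1B-KD 2, in the other set, was off it by -0.74, -0.83, -0.60 and 0.48.

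Dzip3-KD and control lay wholly in different sets, so label and set cannot be told apart from these 4 libraries. *Stat3* averaged 7.03 ± 1.93 RPKM in Dzip3-KD, a log2 difference of -0.74 from control (SE 0.26, 95% interval -1.32 to -0.15, limma adjusted p = 0.343). *Lifr* averaged 8.43 ± 2.59 RPKM against 5.12 ± 0.105 in control, a difference of 0.60 (SE 0.25, limma adjusted p = 0.397). *Socs3* was at 20.5 ± 4.34 against 29.0 ± 4.17 RPKM (-0.49, SE 0.29, limma adjusted p = 0.506). The groups did not overlap for 6 of 8 members, with *Lifr* higher and *Jak1*, *Stat3*, *Socs3*, *Socs2* and *Pim1* lower, but neither did they for 50.7% of all genes (20.4% higher, 30.3% lower). With the file set as a block, which rests on the 2 Ring1B-KD libraries, the difference was -0.14 for *Stat3* and 0.15 for *Lifr*, and turned to 0.39 for *Socs3* and 0.40 for *Jak1*.

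Between Dzip3-KD and Ring1B-KD the members differed by -0.41 (*Junb*) to 0.34 (*Lifr*), with limma adjusted p from 0.864 to 0.981. Only *Socs2* did not overlap, at 10.1 ± 0.893 RPKM in Dzip3-KD and 13.5 ± 1.53 in Ring1B-KD, where 33% of all genes did not. Within files 4 to 6, the Dzip3-KD mean was 0.01 from Ring1B-KD 2 for *Stat3*, 0.12 for *Lifr* and 0.34 for *Socs3*. The differences there were -0.63 for *Junb*, -0.49 for *Socs2* and -0.40 for *Il6st*.

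Other genes of the pathway were taken from lists by role. Of 47 genes, 45 were listed (*Il6* and *Il11* were not) and 40 were tested. Between the file sets, 2 of 40 were called, *Gbx2* and *Myc*, both lower in files 4 to 6, and 0 higher. That is near the 5.53% called among all genes, so the count is not a result about the list. In each of the 3 label contrasts and both word contrasts, 0 of 40 were called.

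*Gbx2*, a homeobox gene that acts downstream of STAT3 in mES cell self-renewal, was at 7.96, 7.82 and 7.95 RPKM in files 1 to 3 and at 1.71, 1.30 and 1.84 in files 4 to 6. The first set was nearly constant and 4.90 times the second in its mean. The log2 difference was -1.77 (SE 0.15, limma adjusted p = 0.000795). *Myc*, a gene for a growth-promoting transcription factor and a known STAT3 target, was at 4.84, 4.13 and 3.58 RPKM against 0.883, 0.893 and 0.814. Its difference was -1.47 (SE 0.16, limma adjusted p = 0.00241), a ratio of means of 4.85. Recovered reads were 51, 57 and 57 against 12, 9 and 14 for *Gbx2*, and 35, 34 and 29 against 7, 7 and 7 for *Myc*. Both were called in 11 of 11 settings in which they were tested. Both fall below the level that the rule for named genes set, and are named here, like *Il6ra* below, after their values were seen.

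Of the 13 other STAT3 targets, 8 were lower in files 4 to 6 without overlap and 0 higher, where 15.5% and 13.1% of all genes were. When each library was scaled to a common 75th percentile, 7 were lower and 2 higher (*Pim3* and *Ccnd1*). The median difference of the list was -0.32, and -0.15 without Ring1B-KD 1, against -0.04 over all genes. The list was chosen with earlier results of these data known, so its shares and median describe it and test nothing. *Tfcp2l1*, a self-renewal factor gene and direct STAT3 target, was at 74.98, 68.8 and 56.0 RPKM in files 1 to 3 and at 51.4, 45.8 and 44.7 in files 4 to 6 (-0.48, SE 0.14, limma adjusted p = 0.0726). *Klf4*, another self-renewal factor gene fed by STAT3, was at 57.6, 50.7 and 61.7 RPKM against 46.8, 40.02 and 48.7 (-0.32, SE 0.13, limma adjusted p = 0.169). Neither passed, though in each the sets did not overlap. *Tfcp2l1* was called in 2 of 12 settings, by voom (adjusted p = 0.0107) and without Ring1B-KD 1 (0.0426). *Klf5*, at 58.1, 55.4 and 96.7 against 51.4, 47.2 and 54.4 RPKM, differed by -0.41 (adjusted p = 0.247), and by -0.15 without Ring1B-KD 1, its highest library. *Sall4* differed by -0.21 (adjusted p = 0.320). The anti-apoptotic gene *Mcl1* averaged 67.6 RPKM and differed by 0.02 (adjusted p = 0.935), while *Pim3* (0.40, adjusted p = 0.196) and the cyclin gene *Ccnd1* (0.41, adjusted p = 0.219) had higher means in files 4 to 6.

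**Figure D4:**
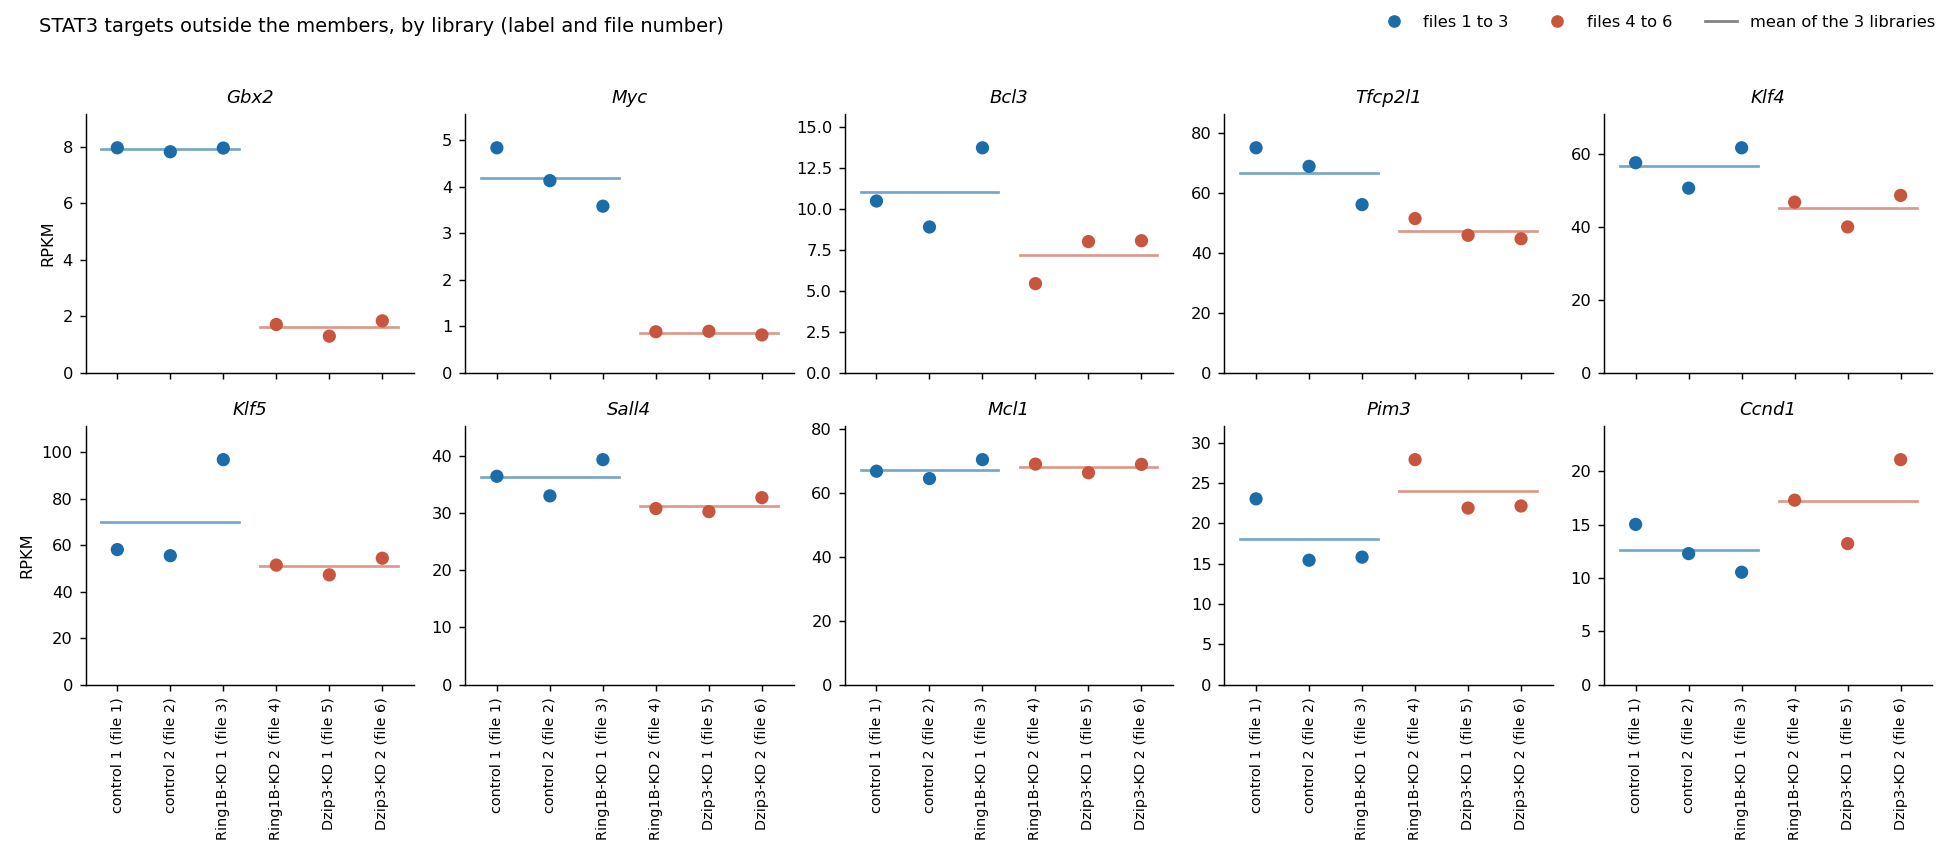
RPKM of 10 of the 13 further STAT3 targets in each library, with sample label and file number, and means of 3 libraries as lines. Targets not drawn differed between the file sets by -0.37, -0.01 and 0.22 on the log2 scale. *Gbx2* and *Myc* fall from above 3.5 RPKM in files 1 to 3 to below 2 RPKM in files 4 to 6, and *Mcl1* stays between 64.5 and 70.4 RPKM in all 6 libraries.

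Among ligand genes, *Lif* itself was at 1.503 to 2.52 RPKM, with a set difference of 0.01 (limma adjusted p = 0.973), in cells given LIF in the medium. *Osm* averaged 1.24 RPKM, *Ctf1* 0.890, *Cntf* 0.572 and *Clcf1* 0.119, the last too low to be tested, and 0 of 4 tested were called. Of the other receptors, 0 of 2 tested were called. *Il6ra*, the ligand-binding chain for IL-6, was at 7.94, 8.81 and 6.56 RPKM in files 1 to 3 and at 4.89, 4.94 and 2.67 in files 4 to 6 (-0.79, SE 0.21, limma adjusted p = 0.0562). It was called in 2 of 12 settings. Its adjusted p (limma or voom) ran from 0.0105 to 0.128 with all libraries and from 0.0650 to 0.141 without 1 library. *Il6ra* was thus lower beside a *Lifr* that was higher, without overlap in either gene. None of the other JAK kinases (0 of 3), STAT factors (0 of 4), SOCS genes (0 of 6) or negative regulators (0 of 8) was called. *Ptpn11*, the phosphatase gene that links gp130 to the MAP kinase branch, averaged 11.1 RPKM and differed by -0.14 (adjusted p = 0.587), and *Pias2*, a gene for a SUMO ligase of the STAT inhibitor family, averaged 23.1 RPKM and differed by -0.03 (adjusted p = 0.923).

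**Figure D5:**
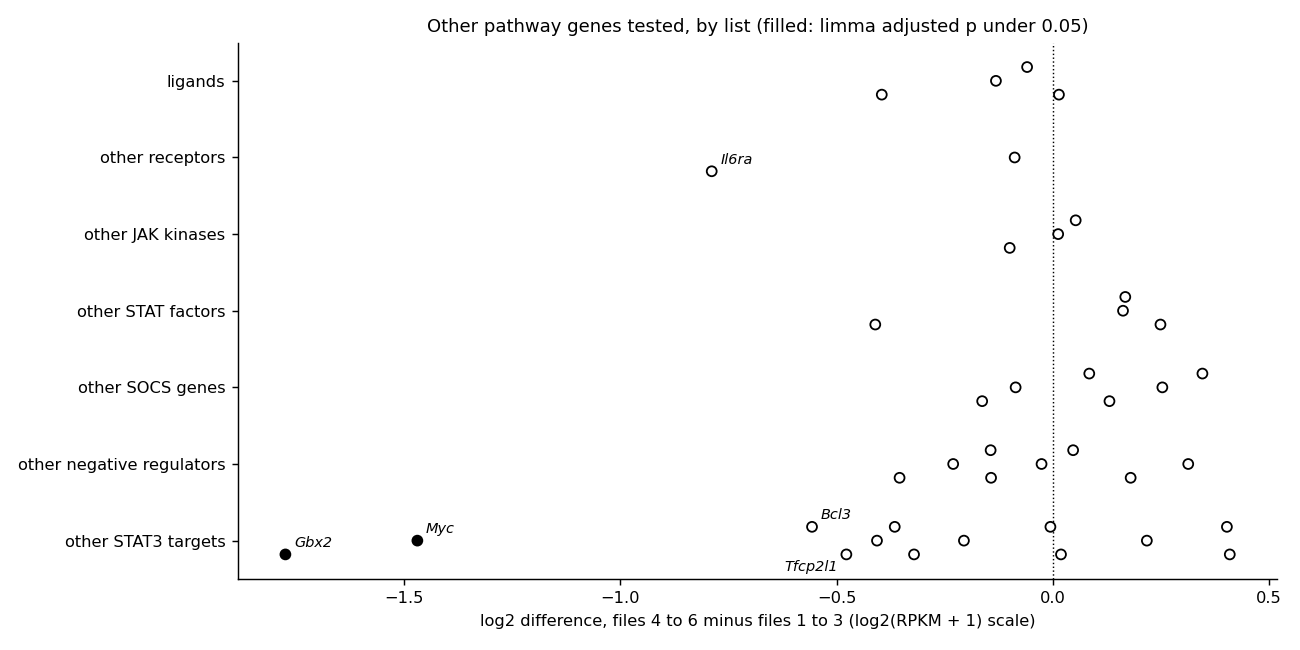
Log2 difference between the file sets (files 4 to 6 minus files 1 to 3, log2(RPKM + 1)) of the 40 pathway genes tested outside the 8 members, by list, with genes past 0.45 in size named. *Gbx2* and *Myc* are the only filled points (limma adjusted p under 0.05), at -1.77 and -1.47.

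Across the 6 libraries, which share their file sets, the member pairs with the Pearson r largest in size are given, on log2(RPKM + 1). They were *Stat3* and *Socs3* (0.93), *Il6st* and *Junb* (0.95), *Jak1* and *Socs3* (0.83), and *Lifr* and *Jak1* (-0.81). All other pairs were weaker, from *Jak1* and *Stat3* (0.73) to pairs near 0, such as *Il6st* and *Stat3* (-0.05). Among 5504 other genes of at least 5 RPKM, the most similar to *Jak1* was *Ppp1r10* (r = 0.989). *Socs3* was nearest to *Zbed4* (0.996), *Gpx2* (0.995) and *Pno1* (0.991), and *Lifr* to *Rabggtb* (0.997), *Cd38* (0.993) and *Fam58b* (0.984). *Il6st* was nearest to *Gm6524* (0.986), *Socs2* to *Gmnn* (0.986), *Pim1* to *Casp9* (0.977) and *Junb* to *Nsd1* (0.970). With 6 points and 5504 genes searched, values of this size describe these libraries only.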

How the data were processed

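RNA-seq of the 6 libraries was quantified by the authors, who deposited 1 list of RPKM values per library. Per the methods, strand-specific libraries of mRNA were read on an Illumina MiSeq, reads were aligned to mm9 with 1 mismatch allowed by the Illumina pipeline, and reads mapped uniquely to a gene were counted. The annotation was not given in the sources used here. RPKM corrects for depth and exon length but not for RNA composition.

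Groups were taken from the sample labels. Comparisons by file set and file word follow the deposited file names and define no condition. limma 3.58.1 in R 4.3.3 was run with a variance trend on log2(RPKM + 1), which understates changes of low genes, for the 11538 genes that averaged 0.5 RPKM or more. All 8 members passed this filter. All 6 libraries entered each fit, p-values were adjusted over all genes tested by Benjamini-Hochberg, and the threshold was 0.05. The label fit had no covariate, and the word fit had the set as a block. The one-way model of the study had no moderated variance.

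Whole reads were recovered for 15383 genes (92.3%), whose 6 values were multiples of 1 read on a whole exon length. For none of the 7 members recovered did this length equal a GENCODE M1 transcript, so read numbers are estimates of scale. PCR duplicates cannot be told from molecules, so floors cover counting error only. voom was run on these reads as an alternative. Other alternatives were another pseudocount, other filters, scaling to the 75th percentile, leaving out each library and blocks. Code was tested on simulated data.

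The members and lists were chosen with earlier results of these data known. Genes named were the members, the targeted genes, the ligands, pathway genes averaging 10 RPKM or more, and for each member the most correlated gene (3 for *Socs3* and *Lifr*), of which that of *Stat3* is not reported here. Promoter sequences are from RefSeq on GRCm38.p6, with no *Socs2* entry.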

Additional observations from a re-analysis of the deposited data

How the results depend on the processing

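Of the 8 members in 6 contrasts, 48 results, 538 alternative values kept direction and side of the threshold, 42 changed sign, 7 lost the call and 3 gained it. The 7 were all *Stat3* between the file sets, and the 3 were *Socs3* (genes of at least 5 RPKM, and voom) and *Lifr* (voom) there. Mean levels moved by less than 1 SD under scaling and without any 1 library. With the file set as a block, signs turned for *Jak1* (0.15) and *Socs3* (0.048) in Ring1B-KD against control, for *Jak1* (0.40) and *Socs3* (0.39) in Dzip3-KD against control, and for *Jak1* (0.25), *Stat3* (0.0062) and *Socs3* (0.34) in Dzip3-KD against Ring1B-KD. Scaling to the 75th percentile turned *Il6st* (0.053) in Dzip3-KD against control, *Pim1* (0.032) in Dzip3-KD against Ring1B-KD and (0.027) between sets, *Lifr* (0.023), *Socs3* (0.063) and *Pim1* (0.12) for the word Ring1BKD, and *Stat3* (0.062) for Dzip3KD. A pseudocount of 0.1 turned *Stat3* for Dzip3KD (0.0033). Without 1 library, values ran for Ring1B-KD against control from -0.60 to 0.15 (*Jak1*) and -0.83 to 0.048 (*Socs3*). For Dzip3-KD against control they ran from -0.21 to 0.13 (*Il6st*) and -0.41 to 0.15 (*Junb*). For Dzip3-KD against Ring1B-KD they ran from -0.50 to 0.25 (*Jak1*), -0.59 to 0.0062 (*Stat3*), -0.53 to 0.34 (*Socs3*) and -0.17 to 0.10 (*Pim1*). Between sets they ran from -0.042 to 0.20 (*Il6st*), -0.26 to 0.024 (*Socs2*), -0.12 to 0.041 (*Pim1*) and -0.15 to 0.30 (*Junb*). For Ring1BKD they ran from -0.26 to 0.062 (*Lifr*), -0.34 to 0.19 (*Socs3*) and -0.085 to 0.048 (*Pim1*), and for Dzip3KD from -0.021 to 0.43 (*Lifr*), -0.26 to 0.26 (*Stat3*) and -0.038 to 0.49 (*Socs3*). Genes called for Dzip3-KD against control numbered 0 as reported, 3 with voom, 24 with only the 4 libraries compared, and 0 to 27 without 1 library. Between sets they numbered 638, 285 with no filter, 1051 with voom, and 67 to 359 without 1 library (67 without Dzip3-KD 2, 103 without Ring1B-KD 2, 209 without control 1, 330 without control 2, 334 without Ring1B-KD 1 and 359 without Dzip3-KD 1), where fewer libraries were fitted. For Ring1BKD they numbered 48, 21 with a pseudocount of 0.1, 0 with no filter, 87 with voom and 3 to 61 without 1 library (3 without Dzip3-KD 1), and for Dzip3KD 0, 5 with voom and 0 to 4 without 1 library. Apart from fewer libraries or genes, the cause was not tested. Replicate numbers did not pair the libraries (correlations of deviations -0.04, -0.24 and 0.04), and with the replicate block 0 genes were called for Ring1B-KD against control, 1 for Dzip3-KD against control and 0 for Dzip3-KD against Ring1B-KD, with no member called. With the Dzip3-KD numbers crossed, a choice made after seeing the data, 0 were called. Depth limits *Junb* most, at 13 to 30 reads per library.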

Other observations

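Ratios between members outside the comparisons above also followed the files in part. *Il6st* stood at 2.11, 1.54 and 1.60 times *Jak1* in files 1 to 3 and at 3.97, 2.09 and 2.65 times in files 4 to 6, with overlap between the sets. *Socs3* stood at 2.50, 2.21 and 2.40 times *Socs2* in files 1 to 3 and at 1.08, 1.62 and 2.48 times in files 4 to 6. Ring1B-KD 2, whose file name has the word control, had the highest *Il6st*, *Socs2* and *Junb* and the lowest *Jak1* and *Socs3* of all 6 libraries. The 4 genes *Lifr*, *Il6st*, *Stat3* and *Socs2* held ranks between 3 and 7 of the 8 members in every library, and *Socs3* and *Pim1* held the first 2 ranks in all 6.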
